A study of Mus musculus with 13 samples.

Results

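Transcript levels of 9 transcription factors of the foregut endoderm and pancreas were followed in 13 mouse NUT carcinoma (mNC) tumors. The 9 are Pdx1, Ptf1a, Onecut1, Hnf4a, Foxa1, Foxa2, Foxa3, Gata4 and Gata6. They were taken by name from a table of 55332 genes with values, and all 9 were found in it. Pancreatic tumors contained transcripts of 8 of them in every tumor, at levels from 0.0739 to 46.7 CPM (counts scaled to library size with TMM factors). Ptf1a was the exception, with no count in 12 of the 13 tumors. Oral tumors had no Pdx1 or Ptf1a count and at most 10 Hnf4a counts per tumor.

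NUT carcinoma is a poorly differentiated squamous cancer, which the NCT mouse develops after Cre recombinase acts. Oral Sox2 WT tumors (n = 4) carried KRT14-Cre and NCT+/-, and oral Sox2 KO tumors (n = 2) are labelled KRT4Cre, NCT+/- and Sox2fl/fl, although the methods of the study name KRT14-Cre as the oral driver. Pancreatic Sox2 WT tumors (n = 4) carried Pdx1-Cre and NCT+/-, and pancreatic Sox2 KO tumors (n = 3) carried the same alleles with both copies of Sox2 floxed. Every tumor, WT included, thus came from a Cre-positive NCT mouse, and no normal tissue was compared here. KRT14-Cre acts in basal cells of the oral mucosa, skin and salivary glands. Pdx1-Cre acts in cells that use Pdx1 control sequences, so that the pancreatic tumors arose among cells with a history of Pdx1 activity. Neither the ages nor the mice behind single tumors are given in the sources used here, so p-values measure the spread between tumors, which may be partly technical. Each library holds a whole tumor, and fewer cells of a type cannot be told apart from less RNA per cell.

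In the developing gut tube, FOXA and GATA proteins bind closed chromatin of endodermal genes and open it for other factors. PDX1 and PTF1A together define the multipotent progenitors of the pancreas. Later PTF1A drives the digestive enzyme genes of acinar cells, while PDX1 is kept in the insulin-producing beta cells of the islets and in parts of the duodenum and stomach. ONECUT1 (HNF6) acts early in pancreas and liver and stays on in duct cells, and HNF4A is a nuclear receptor of liver, gut and pancreas epithelium.

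The labels and depth were checked before the factors. Sox2 had 410 to 680 counts in each oral WT tumor and 1111 to 1487 in each pancreatic WT tumor, against 1 count in all over the 2 oral KO tumors and 3 over the 3 pancreatic KO tumors. Libraries held 29393925 to 40419965 counts in oral WT, 11735031 to 20431977 in oral KO, 40964171 to 46134532 in pancreatic WT and 89562488 to 120482588 in pancreatic KO tumors, so that KO tumors were the shallower in one tissue and the deeper in the other. Oral KO tumor 1 stood apart with 59.5% of its counts in protein-coding genes, against 84.5% to 91.7% in the other tumors. Floors and counting intervals below cover counting error only, while the intervals of fitted log2 fold changes also include the spread between tumors. The 9 squamous basal markers summed to between 5223 and 10954 CPM in oral and between 13389 and 23230 CPM in pancreatic tumors, so that tumors of both sites had the squamous transcripts of this cancer.

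Pdx1, Hnf4a and Foxa2 differed most between the sites by the ratio of summed levels, and the 250 bases before their RefSeq starts are shown because the 3 genes also varied in parallel between pancreatic tumors. The sequences are RefSeq promoters on GRCm38.p6, found for 7 of the 9 factors, written 5′ to 3′ on the strand of the gene. RefSeq has 2 starts for Hnf4a. The upstream one is the P2 promoter known from pancreas and fetal tissue and the downstream one the P1 promoter known from adult liver, and counts per gene do not tell them apart. The RefSeq starts of Pdx1 and Hnf4a lie inside the bounds that GENCODE gives these genes below. Their windows therefore fall partly or wholly within the gene as placed there. Capitals mark matches, on either strand, to 4 short motifs. The FOX core was searched as TGTTTNC. For GATA proteins the letters searched were NGATAA. For Onecut proteins the core ATCNAT was used. The TATA box was read as TATAAA.
Pdx1, chr5:147269847-147270096, plus strand: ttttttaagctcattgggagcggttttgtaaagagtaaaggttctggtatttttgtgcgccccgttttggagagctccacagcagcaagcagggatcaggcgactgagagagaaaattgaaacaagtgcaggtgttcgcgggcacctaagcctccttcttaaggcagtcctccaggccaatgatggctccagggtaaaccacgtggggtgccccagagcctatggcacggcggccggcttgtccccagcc
Hnf4a, upstream start, chr2:163506607-163506856, plus strand: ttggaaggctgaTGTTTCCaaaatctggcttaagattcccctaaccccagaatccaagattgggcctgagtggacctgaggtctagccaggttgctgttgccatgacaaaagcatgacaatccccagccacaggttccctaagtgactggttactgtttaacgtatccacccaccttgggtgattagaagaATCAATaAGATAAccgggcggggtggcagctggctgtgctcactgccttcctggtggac
Hnf4a, downstream start, chr2:163546905-163547154, plus strand: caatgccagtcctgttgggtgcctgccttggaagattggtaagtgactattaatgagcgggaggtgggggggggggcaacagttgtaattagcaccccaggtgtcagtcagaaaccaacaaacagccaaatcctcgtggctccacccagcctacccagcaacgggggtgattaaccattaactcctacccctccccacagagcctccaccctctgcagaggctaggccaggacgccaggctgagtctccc
Foxa2, outermost start, chr2:148046970-148047219, minus strand: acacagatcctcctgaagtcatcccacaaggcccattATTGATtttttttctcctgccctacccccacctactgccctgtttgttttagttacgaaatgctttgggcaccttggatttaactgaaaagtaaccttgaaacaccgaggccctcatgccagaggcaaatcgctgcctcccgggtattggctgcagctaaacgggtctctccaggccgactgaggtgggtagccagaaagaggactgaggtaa
With positions counted back from the start and given for the leftmost base, the upstream Hnf4a window held a FOX core at position -238, a Onecut core at position -59 and a GATA core at position -52, the last pair separated by a single base. The window of the outermost of 3 annotated Foxa2 starts held a Onecut core at position -213, while that of the innermost, not shown, held a GATA core and a TATA box. The Pdx1 window and the downstream Hnf4a window held none of the 4 motifs. Over 32817 mouse promoter windows of 300 bases each, 20.49% held the FOX core, 25.34% the GATA core, 21.41% the Onecut core and 13.62% the TATA box. Such matches describe letters only, and each of the 4 motifs occurs in more than 1 in 10 promoters.

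Pdx1 (chr5:147269959-147275848) was present in every pancreatic tumor and in no oral tumor. Its levels were 10.9, 3.71, 5.81 and 2.78 CPM in pancreatic WT tumors 1 to 4 and 11.4, 6.17 and 1.40 CPM in pancreatic KO tumors 1 to 3, from 113 to 1301 counts per tumor. All 6 oral tumors had 0 counts. The WT and KO tumors of the pancreas overlapped completely, with KO tumors both at the top and at the bottom of the order. Against a floor of 3 counts summed over the oral group, Pdx1 was at least 296-fold higher in pancreatic than in oral WT tumors, and by the same measure KO tumors differed by 75.1-fold or more.

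Ptf1a (chr2:19445663-19447501), the partner of Pdx1 in progenitors and the driver of acinar genes, was not found in 12 tumors. Pancreatic KO tumor 3 had 6 counts, a level of 0.0520 CPM. A count of 0 allows a level of up to 0.0684 to 0.0849 CPM in the pancreatic WT tumors and of up to 0.0262 and 0.0336 CPM in pancreatic KO tumors 1 and 2. Pdx1 transcript was thus present in 6 pancreatic tumors in which its progenitor partner was not detectable at this depth.

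Onecut1 (chr9:74861921-74891781) reached 3.38, 0.594, 1.44 and 0.468 CPM in pancreatic WT tumors and 2.46, 2.22 and 0.502 CPM in pancreatic KO tumors. Oral WT tumors had 0.243, 0.0923, 0.190 and 0.184 CPM, all below every pancreatic tumor. The oral KO tumors lay far apart, at 0.0992 CPM from 1 count and 1.83 CPM from 47.02 estimated counts, so that oral KO tumor 2 was within the pancreatic range. Of the 31-base sequences of Onecut1, 53.0% also occur in other genes, chiefly the lincRNA Gm20649 that lies over it on the same strand, which makes its estimated counts less certain than those of the other factors, of whose 31-base sequences at most 0.338% are shared. Gm20649 itself averaged 0.106 CPM in pancreatic WT tumors and was at or near 0 in the other groups.

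Hnf4a (chr2:163506808-163572910) had 22.1, 2.69, 7.98 and 5.54 CPM in pancreatic WT tumors and 14.8, 15.05 and 0.988 CPM in pancreatic KO tumors. Pancreatic KO tumor 3 was the lowest of the 7 and pancreatic WT tumor 1 the highest, a 22.3-fold span. In oral WT tumors 0, 1, 2 and 10 counts were found, and in both oral KO tumors none. Summed over tumors, Hnf4a was 113-fold higher in pancreatic than in oral WT tumors. For KO tumors the fold between the sites was at least 118.

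**Figure D1:**
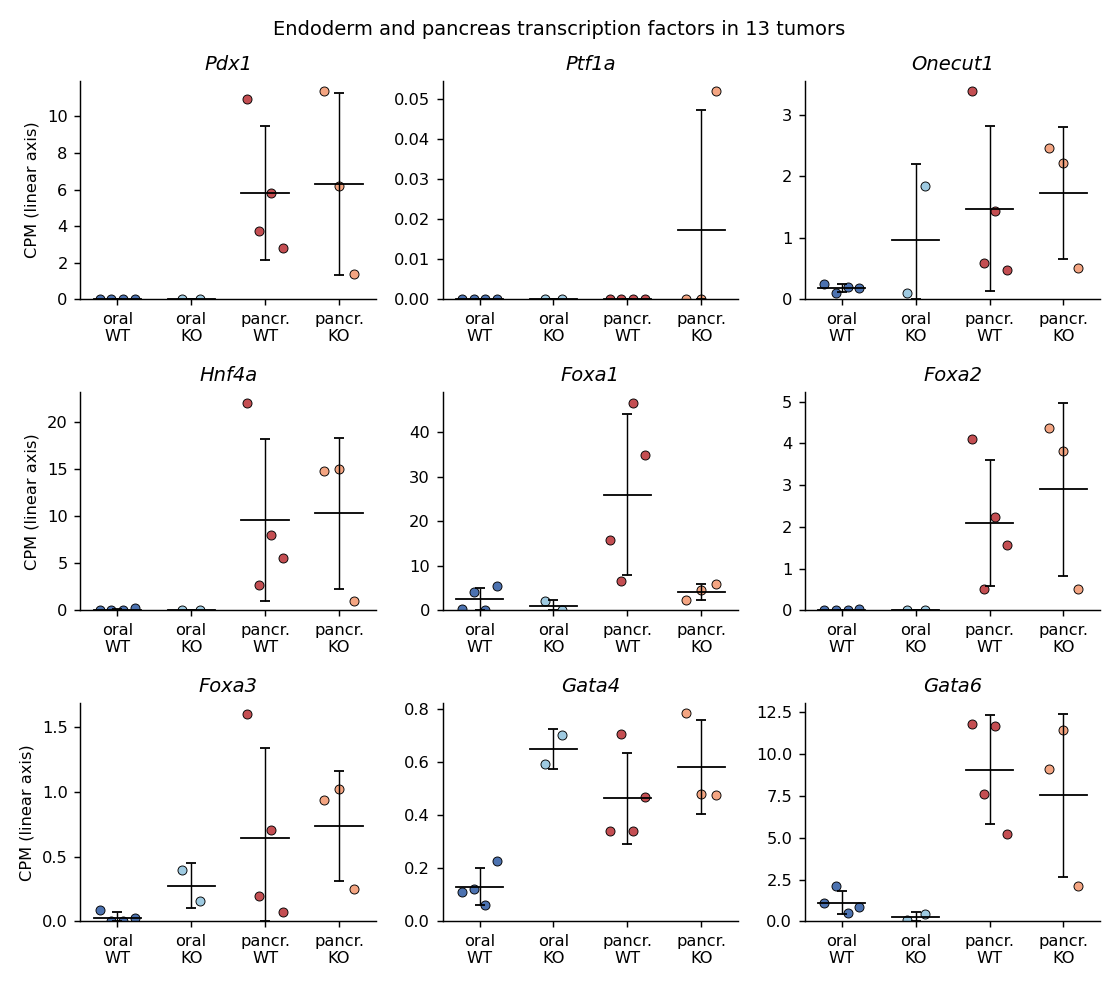
Levels of the 9 factors in every tumor, as CPM on a linear axis that differs between panels, with the oral and pancreatic (pancr.) WT and Sox2 KO groups side by side; each point is a tumor, the long bar is the group mean and the whiskers are 1 SD, ending at 0 where they would pass it. Pdx1, Hnf4a and Foxa2 lie at or near 0 in all 6 oral tumors, Ptf1a is at 0 in 12 of 13 tumors, and Foxa1 is lower in all 3 pancreatic KO tumors than in the 4 pancreatic WT tumors.

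The 3 FOXA genes, pioneer factors of the endoderm, did not behave alike. Foxa1 (chr12:57540628-57546916) had the highest mean level of the 9 per length in pancreatic WT tumors, with 15.8, 6.54, 46.7 and 34.9 CPM. Pancreatic KO tumors had 2.22, 4.47 and 5.86 CPM, every one below the lowest WT tumor. Foxa1 was also the only FOXA gene with much transcript in oral tumors, with 0.375, 4.03, 0.0317 and 5.37 CPM in the WT tumors and 1.98 and 0.117 CPM in the KO tumors. Oral WT tumors 2 and 4 therefore overlapped the pancreatic KO tumors, while oral WT tumor 3 had a single count.

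Foxa2 (chr2:148042877-148046969) had 4.09, 0.509, 2.23 and 1.55 CPM in pancreatic WT tumors and 4.36, 3.81 and 0.520 CPM in pancreatic KO tumors. Among the oral tumors 1 count was found in all, in WT tumor 4. The ratio of summed levels between pancreatic and oral WT tumors was 324, with a 95% counting interval from 57.8 to 12853, and pancreatic KO tumors were at least 33.6-fold higher than oral KO tumors. Foxa2 thus had the sharp split between sites seen for Pdx1, which Foxa1 did not have.

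Foxa3 (chr7:19013284-19023538), the FOXA gene best known from liver and gut, was the weakest of the 3 in pancreatic tumors. It had 1.60, 0.198, 0.706 and 0.0739 CPM in pancreatic WT tumors, from 3 to 61 counts, and 0.935, 1.02 and 0.251 CPM in pancreatic KO tumors. Oral WT tumors had 4, 0, 0 and 1 counts and each oral KO tumor had 4. At these counts the pancreatic WT tumors with least Foxa3 overlapped the oral KO tumors.

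GATA6 and GATA4 act together in pancreas formation, and Gata6 was the more abundant in the pancreatic tumors, at 1.39 CPM per kilobase of exon in WT tumors against 0.119 for Gata4. Gata6 had 11.8, 7.58, 11.7 and 5.20 CPM in pancreatic WT tumors and 9.12, 11.4 and 2.09 CPM in pancreatic KO tumors. Oral WT tumors had 1.08, 2.09, 0.475 and 0.850 CPM, and oral KO tumors had 0.0992 and 0.468 CPM from 1 and 12 counts. Only pancreatic KO tumor 3 came down to the highest oral tumor, and both oral KO tumors lay below the lowest oral WT tumor.

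Gata4 (chr14:63198922-63271692) stayed under 1 CPM in every tumor. Oral WT tumors had 0.110, 0.123, 0.0633 and 0.230 CPM, from 2 to 10 counts each. Oral KO tumors had 0.595 and 0.702 CPM, from 6 and 18 counts, both above every oral WT tumor and within the pancreatic range of 0.341 to 0.787 CPM. Pancreatic WT and KO tumors overlapped. With 2 oral KO tumors, a separation from the oral WT tumors can arise by chance, here as for Gata6.

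Levels of different factors can be compared only per length of transcript, as CPM per kilobase of exon. On that scale the order in pancreatic WT tumors was Foxa1 with 7.81 ± 5.46 (SD, n = 4), Pdx1 with 2.69 ± 1.69, Hnf4a with 1.98 ± 1.78, Gata6 with 1.39 ± 0.497, Foxa2 with 0.885 ± 0.636, Onecut1 with 0.357 ± 0.327, Foxa3 with 0.317 ± 0.340 and Gata4 with 0.119 ± 0.0442, and Ptf1a was at 0. Each neighbouring pair in this order differed by less than the larger of its 2 SDs, except Gata4 and Ptf1a. These SDs are between tumors, while the factors were measured in the same tumors. Within each of the 4 tumors Pdx1 was above Hnf4a, Gata6 above Foxa2, Foxa2 above Onecut1 and Onecut1 above Foxa3. Foxa1 was above Pdx1 in 3 of the 4. Hnf4a was above Gata6, and Foxa3 above Gata4, in 2 of the 4. In pancreatic KO tumors Pdx1 led with 2.93 ± 2.31 (SD, n = 3), followed by Hnf4a with 2.13 ± 1.67, Foxa1 with 1.26 ± 0.552, Foxa2 with 1.22 ± 0.877 and Gata6 with 1.16 ± 0.747. Foxa1 thus led in the WT order and followed Pdx1 and Hnf4a in the KO order. For scale, Sox2 had 15.9 ± 1.17 CPM per kilobase in pancreatic WT tumors (n = 4). In oral WT tumors Foxa1 also came first, with 0.737 ± 0.799 CPM per kilobase, and Gata6 second, with 0.173 ± 0.106.

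The comparison of sites among WT tumors addressed which of the factors differed between oral and pancreatic tumors. With edgeR's quasi-likelihood test and Benjamini-Hochberg adjustment over 23164 genes, a gene was called where the adjusted p was under 0.05 and the absolute log2 fold change above 1, and 7.24% of the genes were called higher in pancreatic tumors. Of the 8 factors that passed the count filter (10 or more counts in 2 or more of the tumors compared), 7 were called higher, and Ptf1a could not be tested. Only Foxa1 and Gata6 had 10 counts in 2 or more of the oral WT tumors. The other 6 passed the filter with the help of pancreatic tumors, so that the count of 7 was in part set by the filter. Adjusted p was 0.00148 for Pdx1, 0.00318 for Hnf4a, 0.00135 for Foxa2 and 0.0298 for Foxa3 (edgeR). Gata6 was higher by a log2 fold change of 3.01 (SE 0.48, adjusted p = 0.00331), Onecut1 by 3.02 (SE 0.69, adjusted p = 0.0140) and Gata4 by 1.76 (SE 0.48, adjusted p = 0.0273), all by edgeR. Foxa1 did not pass, with a log2 fold change of 3.40 (SE 1.15, 95% interval 0.78 to 6.02, adjusted p = 0.0637 by edgeR). DESeq2 called it at an adjusted p of 0.0256, and edgeR called it without oral WT tumor 4, at a log2 fold change of 4.15 and an adjusted p of 0.0392. The calls of the weakly expressed factors rested on single tumors. Foxa3 was lost without oral WT tumor 2, 3 or 4 (adjusted p up to 0.0711, edgeR). Gata4 was lost without oral WT tumor 1, 2 or 3 or pancreatic WT tumor 2 or 4 (adjusted p up to 0.0786, edgeR). The 10 fibroblast markers summed to 9486 to 19878 CPM in oral WT and 1190 to 2370 CPM in pancreatic WT tumors. Of these, 9 were called lower in pancreatic tumors, where 9.3% of all genes were. The part of such differences in tissue content in the site differences of the factors was not tested.

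Among Sox2 KO tumors, 4 of the 8 factors tested were called higher in the pancreas, where 10.7% of 24787 genes were. They were Pdx1 (adjusted p = 0.0200), Hnf4a (adjusted p = 0.0307), Foxa2 (adjusted p = 0.0296) and Gata6 (log2 fold change 4.59, SE 1.01, adjusted p = 0.0223), all by edgeR. Foxa1, at 2.19 (SE 1.09), Foxa3, at 1.61 (SE 0.88), and Onecut1, at 0.77 (SE 1.05), had log2 fold changes that did not pass. That of Gata4 was -0.12, with a 95% interval from -1.27 to 1.04. All 8 passed the count filter through the pancreatic tumors. With 2 oral KO tumors the calls depended on each one. Without oral KO tumor 1, oral KO tumor 2 or pancreatic KO tumor 2 none of the 4 kept its call, and without pancreatic KO tumor 1 only Pdx1 did (adjusted p = 0.0418, edgeR). Where an oral KO tumor is left out, the lone one is assumed to vary like the pancreatic tumors.

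Whether Sox2 status went with a change in these factors was tested within each site. In pancreatic tumors none of the 8 factors tested was called by edgeR, where 0.629% of 24653 genes were, and only Foxa1 had an unadjusted p under 0.05. For Pdx1 the log2 fold change of KO over WT was 0.12 (SE 0.70, 95% interval -1.52 to 1.76), which leaves room for a change of either direction. Intervals of the same kind held 0 for Hnf4a, at 0.11 (-2.13 to 2.35), Foxa2, at 0.47 (-1.42 to 2.35), Foxa3, at 0.19 (-1.93 to 2.31), and Onecut1, at 0.24 (-1.57 to 2.05). The narrowest intervals were those of Gata4, at 0.34 (-0.53 to 1.21), and Gata6, at -0.26 (-1.53 to 1.02).

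Foxa1 was the factor that differed most with Sox2 status in the pancreas. Its mean was 26.0 ± 18.2 CPM (SD, n = 4) in WT against 4.18 ± 1.84 CPM (n = 3) in KO tumors, without overlap. The log2 fold change was -2.61 (SE 0.70, 95% interval -4.26 to -0.97) with an adjusted p of 0.140 by edgeR, which is not a call. By DESeq2 the change was -2.62 with an adjusted p of 8.77e-04, which is one. Leaving out each tumor in turn gave log2 fold changes from -2.95 to -2.18 and adjusted p from 0.108 to 0.294 by edgeR. Several marker sums were also without overlap between these groups. Groups of so few tumors can separate by chance, and the share of all genes that did so was not counted. The 13 islet products summed to 3.56 to 27.6 CPM in WT and 1.15 to 1.53 CPM in KO tumors, where G6pc2 was at 0 in every tumor. The 5 mesothelial markers summed to 10.6 to 18.5 CPM in WT and 5.70 to 9.12 CPM in KO tumors, with none of the 5 at 0 throughout. The 10 duct markers summed to 2642 to 5142 CPM in WT and 8305 to 9929 CPM in KO tumors. That sum followed Spp1 alone, at means of 1587 CPM in WT and 7588 CPM in KO tumors, while 8 of the 10 duct markers had lower fitted levels in KO tumors (median log2 fold change -0.23). No gene of these lists was called by edgeR, where 0.629% of all genes were, and their part in the Foxa1 difference was not tested.

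In oral tumors 4 factors could be tested and none was called by edgeR, where 11.7% of 22342 genes were. That share depended on the tumors included. The 1968 genes higher and 646 lower became 19 and 17 without oral WT tumor 2 and 43 and 27 without oral WT tumor 1. They became 912 and 302 without oral WT tumor 3 and 1877 and 739 without oral WT tumor 4. Leaving out either oral KO tumor also cut these numbers, with a lone KO tumor left. Genes with an unadjusted p under 0.05 (edgeR) changed less, from 7913 to 6720, 6294, 7228 and 7828 without oral WT tumors 1 to 4. Gata4 came closest, with a log2 fold change of KO over WT of 2.33 (SE 0.63, 95% interval 0.85 to 3.81, adjusted p = 0.0504). It was called without robust dispersions (adjusted p = 0.0473) and in a single edgeR fit of all 13 tumors (log2 fold change 2.27, adjusted p = 0.00800). Onecut1 had a log2 fold change of 2.55 (SE 0.86, adjusted p = 0.0829, edgeR), carried by oral KO tumor 2. Gata6, at -1.74 (SE 0.81), and Foxa1, at -1.22 (SE 1.83), did not pass. Neil2, which lies 5066 bases from Gata4 on the same strand, averaged 9.80 CPM in oral KO and 3.20 CPM in oral WT tumors. The oral KO tumors also held far more muscle transcript. All 9 skeletal muscle markers had higher fitted levels in oral KO tumors (1 called), their sum was 3078 to 5580 CPM in KO and 5.39 to 558 CPM in WT tumors, and none of the 9 was at 0 throughout in either group. The part of muscle tissue, of the low protein-coding share of oral KO tumor 1 or of the shallow KO libraries in the Gata4 difference was not tested.

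**Figure D2:**
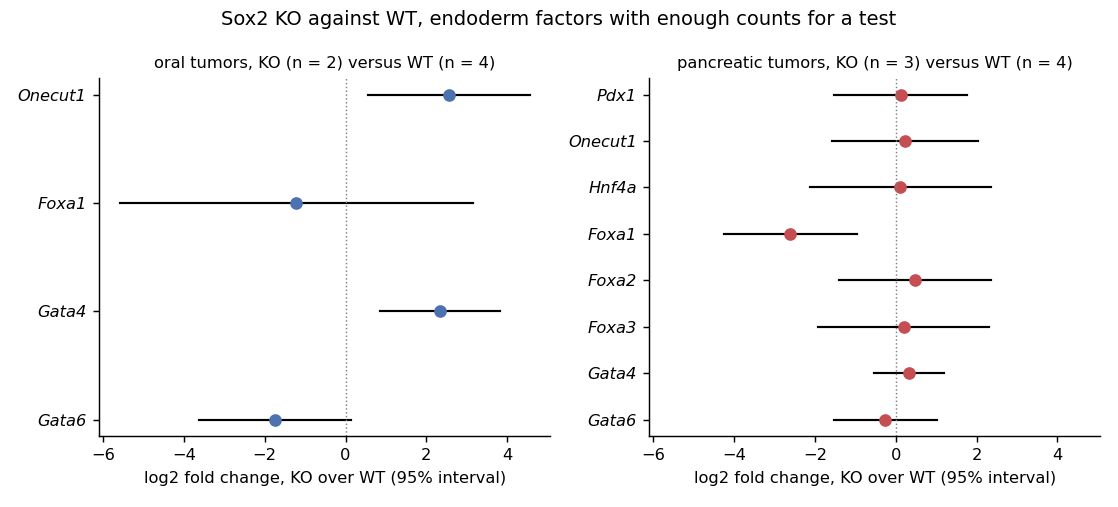
Log2 fold change of Sox2 KO over WT tumors by edgeR, with 95% intervals, for the factors that could be tested in oral tumors (left, 4 factors) and pancreatic tumors (right, 8 factors). None was called; the interval of Foxa1 in the pancreas lies from -4.26 to -0.97 and that of Gata4 in oral tumors from 0.85 to 3.81, while those of Pdx1, Hnf4a, Foxa2, Foxa3 and Onecut1 in the pancreas are centred near 0.

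Whether the Sox2 difference itself differed between the sites was tested as an interaction over all 13 tumors, in which 12.3% of 25836 genes were called. None of the 8 factors tested was called. Gata4 had an interaction of -1.94 on the log2 scale (SE 0.67, adjusted p = 0.0661, edgeR), which passed without oral WT tumor 4 (-2.36, adjusted p = 0.0318). For Gata6 it was 1.52 (SE 1.02) and for Foxa1 -1.23 (SE 1.86). No interaction is given for Pdx1 and Foxa2, whose oral groups both lie at or under 3 counts.

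Levels spread widely among the 7 pancreatic tumors. Highest over lowest of the 7 tumors, the span was 22.3-fold for Hnf4a, 21.7-fold for Foxa3, 21.0-fold for Foxa1, 8.56-fold for Foxa2, 8.10-fold for Pdx1, 7.22-fold for Onecut1, 5.65-fold for Gata6 and 2.31-fold for Gata4. Pdx1, Hnf4a, Foxa2, Gata6 and Onecut1 varied in parallel. Pancreatic WT tumors 1 and 3 and pancreatic KO tumors 1 and 2 were above the mean log2 level of the 7 for each of these 5, and pancreatic WT tumor 4 and pancreatic KO tumor 3 were below it. Over the 7 tumors, the 10 pairs among the 5 genes had Pearson's r of log2 CPM from 0.733 to 0.956 and Spearman's rho from 0.643 to 0.929. These 5 were grouped after their values were seen, the tumors share library and scaling factors, and the values are a description.

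Foxa1 did not belong to this group, with r from -0.22 to 0.11 against the 5, and neither did Gata4, with r from -0.21 to 0.0074. Pancreatic WT tumors 3 and 4, highest for Foxa1, were in the middle and toward the bottom for Pdx1. Among the factors correlated, the 5 that varied together thus included Foxa2 but not Foxa1, and Gata6 but not Gata4. No correlation with the 5 was computed for Foxa3, which had as few as 3 counts in a tumor, or for the relatives Gata5 and Onecut3. Each had higher CPM in pancreatic WT tumors 1 and 3 and pancreatic KO tumors 1 and 2 than in the other pancreatic tumors. The pattern was thus not particular to these 5.

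**Figure D3:**
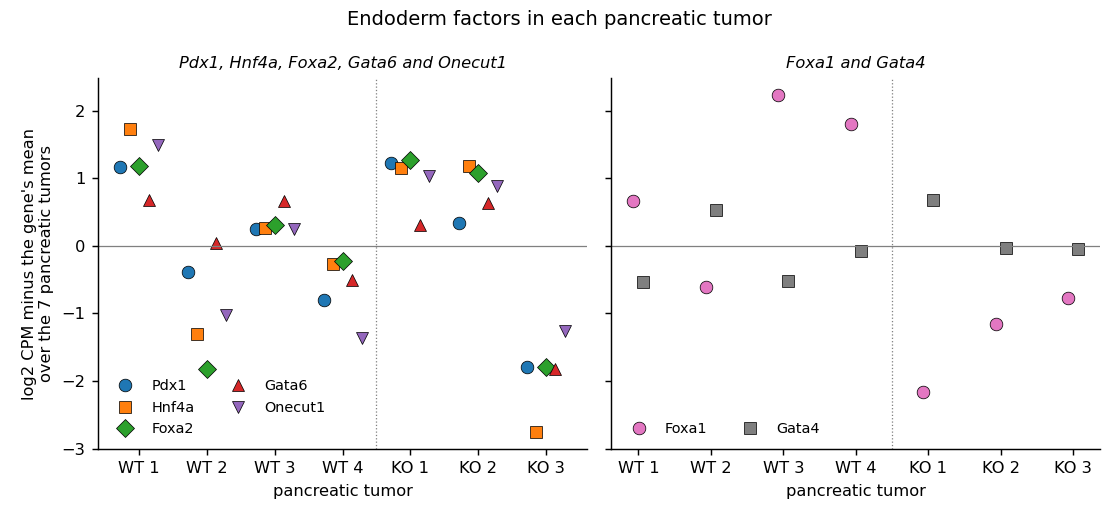
Level of each factor in the 7 pancreatic tumors as log2 CPM minus the mean of that gene over the 7, with Pdx1, Hnf4a, Foxa2, Gata6 and Onecut1 on the left and Foxa1 and Gata4 on the right; points of a tumor are set side by side and the dotted line parts WT from KO tumors. On the left all 5 genes lie below the mean in KO tumor 3 and WT tumor 4 and above it in WT tumors 1 and 3 and KO tumors 1 and 2, and on the right Foxa1 is highest in WT tumors 3 and 4.

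Products of gastric and intestinal epithelium, taken as a sum, varied in step with the 5 factors. The 15 genes of this list include the trefoil factors Tff1, Tff2 and Tff3, the gland mucin Muc6, cathepsin E (Ctse) and villin (Vil1). Their sum was 1015, 88.8, 292 and 179 CPM in pancreatic WT tumors 1 to 4 and 398, 283 and 21.4 CPM in pancreatic KO tumors 1 to 3, against 5.23 to 27.0 CPM in oral tumors. Pancreatic KO tumor 3, lowest for Pdx1, Hnf4a and Gata6, was also lowest here and fell within the oral range. Over the 7 tumors, r of the log2 sum was 0.9703 with Hnf4a, 0.922 with Pdx1, 0.888 with Foxa2, 0.877 with Gata6 and 0.831 with Onecut1, and 0.173 with Foxa1. The 11 liver secreted products, led by transthyretin (Ttr), gave r of 0.953 with Foxa2 and 0.912 with Hnf4a. Among WT tumors 13 of the 15 gastric and intestinal genes were called higher in pancreatic tumors, against 7.24% of all genes. Several of them, such as Tff3 and Anxa10 with a mean of 0 in oral WT tumors, passed the filter only through the pancreatic tumors, so that this count was in part set by the filter. Krt20, a keratin of gut epithelium, averaged 32.4 CPM in pancreatic WT and 0.164 CPM in oral WT tumors (adjusted p = 1.78e-04, edgeR). Within the pancreas it did not follow the sum, being highest, at 38.5 CPM, in WT tumor 2, where the sum was lowest of the WT tumors. Between pancreatic KO and WT tumors, 13 of the 15 genes had lower and 2 higher fitted levels in KO tumors (median log2 fold change -1.16). None was called, where 0.629% of all genes were.

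Acinar products showed another picture. The 18 genes of the list summed to 8.87 to 23.8 CPM in pancreatic WT tumors, where none was at 0 throughout, and to 5.17 to 23.5 CPM in oral WT tumors, where Ctrb1 and Clps were. In pancreatic KO tumors the sums were 17.96 and 13.2 CPM in tumors 1 and 2 and 398 CPM in tumor 3. That tumor is the only one with Ptf1a counts and the lowest of the pancreas for Pdx1, Hnf4a and Gata6. Ctrb1, the chymotrypsinogen of pancreatic juice, averaged 48.1 CPM in pancreatic KO and 2.69 CPM in pancreatic WT tumors. With 1 of 3 tumors carrying the difference, none of the 17 acinar genes tested was called between KO and WT (edgeR), where 0.629% of all genes were.

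**Figure D4:**
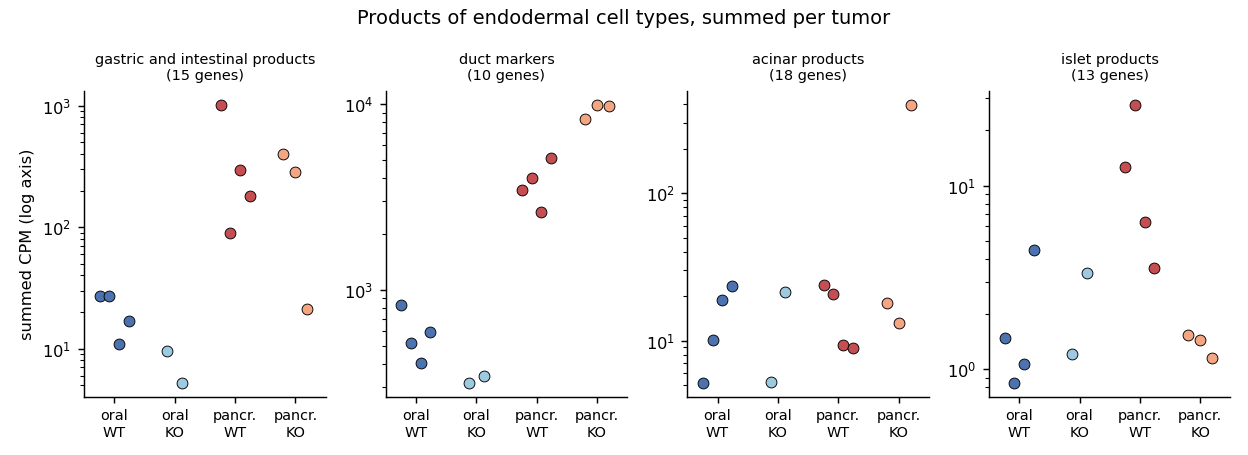
Summed CPM on a log axis of gastric and intestinal products, duct markers, acinar products and islet products, 1 point per tumor, by site and Sox2 status (pancr., pancreatic). Pancreatic KO tumor 3 is the lowest pancreatic tumor for gastric and intestinal products, at 21.4 CPM, and the highest for acinar products, at 398 CPM.

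Other factors of pancreas and endoderm gave the setting for the 9. Of 33 on the list, 25 could be tested between WT tumors, 12 were called higher in pancreatic tumors and none lower, where 7.24% of genes were called higher and 9.3% lower. Meis1, a homeodomain partner of other homeodomain factors, averaged 137 CPM in WT tumors of the pancreas against 11.6 CPM in those of the mouth (log2 fold change 3.56, SE 0.39, adjusted p = 0.00103, edgeR). Per kilobase, Onecut2 stood at 29.9 ± 18.5 CPM in pancreatic WT tumors (SD, n = 4) and its relative Onecut1 at 0.357 ± 0.327, so that the most abundant Onecut gene of these tumors was not the one best known from pancreas. In KO tumors 22 could be tested, and 8 were called higher and 1 lower in the pancreas, where 10.7% of genes were higher and 14.6% lower. Between KO and WT tumors of the pancreas none of 23 was called, where 0.629% of all genes were. In oral tumors 2 of 21 were called, a share below the 11.7% of all genes. These, Onecut3 (log2 fold change 2.34, SE 0.52, adjusted p = 0.0332) and Gata5 (2.01, SE 0.49, adjusted p = 0.0390), relatives of Onecut1 and Gata4, were higher in KO tumors by edgeR, at means of 0.813 and 1.49 CPM, in the same libraries as the muscle transcripts above. Onecut3 passed the count filter only through the KO tumors, at 10.12 and 15.96 estimated counts against at most 8.16 in an oral WT tumor, so that its call was in part set by the filter.

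Factors of the anterior foregut and pharynx were mixed. Of 13, 12 could be tested between WT tumors, where 9.3% of all genes were called lower and 7.24% higher in the pancreas. Of these, 5 were called lower in pancreatic tumors (among them Tbx1, Foxe1, Eya1 and Barx1) and 1 higher (Nkx2-3). Nkx2-3 was at 0 in every oral WT tumor and passed the filter only through pancreatic tumors, so that its call was in part set by the filter. Tbx1, a regulator of the pharyngeal arches, averaged 25.2 CPM in oral WT and 0.512 CPM in pancreatic WT tumors (adjusted p = 1.78e-04, edgeR). Among relatives of the factors, Gata3, known from squamous epithelium, averaged 89.8 CPM in oral WT against 8.13 CPM in pancreatic WT tumors (adjusted p = 0.0211, edgeR), the opposite direction to Gata6. Of the 12 other GATA and FOX genes tested, 3 were called lower in pancreatic WT tumors and none higher, against the same shares of all genes. Among KO tumors 1 of 12, Foxc1, was called higher and none lower, against 10.7% and 14.6% of all genes.

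Some noncoding neighbours of the factors had higher means in pancreatic than in oral tumors, which was not tested against the factors. Plut, which lies antisense over the start of Pdx1, averaged 0.832 CPM in pancreatic WT, 0.890 in pancreatic KO, 0.0359 in oral WT and 0.0390 in oral KO tumors. 9030622O22Rik, 2674 bases from Foxa2, averaged 0.421 and 0.388 CPM in pancreatic WT and KO tumors and 0.0057 CPM or none in oral tumors. Gm16551, 1787 bases from Onecut1, averaged 2.16 and 1.81 CPM in pancreatic WT and KO tumors and at most 0.108 CPM in oral groups, while Onecut1 itself averaged 0.966 CPM in oral KO tumors. Ptf1aos was at 0 in all groups, and Hnf4aos averaged 0.0029 CPM in pancreatic KO tumors and was at 0 elsewhere. The counting of the study used strand, so that antisense neighbours were counted apart. Sympk, a protein-coding gene 839 bases from Foxa3, averaged between 103 and 124 CPM in all 4 groups with no marked difference between sites.

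Over all 13 tumors, where site dominates, the protein-coding genes most like each factor in log2 CPM were other factors of the set in several cases. Foxa2 was closest to Pdx1 (r = 0.983), followed by Vsig1 and Plekhb2. Foxa2 was also closest to Hnf4a (r = 0.985), followed by Pold4. Closest to Foxa1 were Cyp2b10 (r = 0.949), Dclk3 and Irak4, and to Gata6 were Ctse (r = 0.959), Plin2 and Rps6ka3. Onecut1 was most like Slc17a4 (r = 0.928), Cox17 and Erich5, and Gata4 most like Slc25a43 (r = 0.905), Gm9817 and Zfp800. These are descriptions over 16035 genes with tumors that share site and library, and Ptf1a and Foxa3 had too few counts to be included.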

How the data were processed

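RNA of 13 tumors was sequenced after depletion of ribosomal RNA with a stranded kit, 1 library per tumor. Reads trimmed by Trim Galore 0.6.10 were assigned with strand to GENCODE M23 transcripts (GRCm38) by kallisto 0.50.0, and the authors deposited the estimated counts per gene without scaling. They were rounded for tests, since 27.3% are not whole. Of 56085 rows, 55332 have values, and symbols and positions were matched for 55141 from GENCODE M21 (GRCm38). Groups came from the sample labels.

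Tests used edgeR 4.0.16 in R 4.3.3 (TMM, robust quasi-likelihood fit, Benjamini-Hochberg adjustment over all genes tested) on genes reaching 10 counts in 2 or more of the tumors fitted. Genes with adjusted p below 0.05 that differed by more than 1 on the log2 scale were called. DESeq2 1.42.0 and apeglm 1.24.0 were alternatives. Each KO and site comparison was fitted on its own groups and the interaction on all 13 tumors. The fits were tested on simulated data. CPM used TMM factors over 13 tumors, and levels per kilobase the union of exons in GENCODE M21. Folds against groups without counts used 3 counts over the group. The 9 factors and all gene lists were chosen with earlier results of these data known.

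Named are the 9 factors, Sox2, annotated genes within 10 kb, in each list the genes called (at most 3 by adjusted p) or highest, and the 3 genes most correlated with each factor. Some others (Ctrb1, Spp1, Ttr and relatives of the factors) were named after their values were seen. Same-numbered tumors did not deviate together in every pair (r from -0.080 to 0.317), so that the numbers were treated as names. Results for some genes are not reported here.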

Additional observations from a re-analysis of the deposited data

Results flagged for a closer look

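Of 15 sets of 4 tumors with more than one value, 1 held a tumor far from the others by Dixon's criterion, and chance alone marks about 1 in 20. It was Foxa2 in oral WT tumors, where tumor 4 had 0.0230 CPM and the other 3 had 0. That value is a single count, under the floor of 3 counts.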

How the results depend on the processing

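Across the alternatives, apart from leaving out tumors, direction and side of the threshold were kept for 32 values in oral KO against WT with 2 exceptions, 73 in pancreatic KO against WT with 6, 63 among WT tumors with 2, 62 among KO tumors with 1, and 40 of the interaction with none. The cause was not tested unless given. The numbers of oral KO factors called higher were 1 (Gata4) without robust dispersions and 1 in the single fit of 13 tumors. DESeq2, with or without apeglm, called 1 factor lower in pancreatic KO tumors (Foxa1, shrunken -2.29). With at least 10 counts in every tumor, which removes most of the factors from the test, 1 was called higher among WT and 0 among KO tumors. Without a count filter Hnf4a lost its call among KO tumors (adjusted p = 0.102). Scaling to protein-coding counts moved Gata4 in oral KO tumors to 0.951 from 0.649 CPM. Under the replicate block, log2 fold changes of pancreatic KO over WT turned to -0.37 for Pdx1, -0.41 for Hnf4a, -0.14 for Foxa3 and -0.081 for Onecut1, none called, and Gata4 lost its call among WT tumors (1.80, adjusted p = 0.0550). Other calls held under the block.

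Leaving out a tumor gave 5 to 7 factors higher among WT tumors, 0 to 4 among KO tumors, and 0 to 1 lower in the interaction (Gata4). In pancreatic KO against WT it gave log2 fold changes from -0.61 to 0.62 for Pdx1, -0.28 to 0.92 for Hnf4a, -0.18 to 1.14 for Foxa3, -0.69 to 0.19 for Gata6 and -0.11 to 1.04 for Onecut1. It gave -0.079 to 4.12 for Onecut1 among KO tumors, and in the interaction -3.06 to 1.07 for Onecut1 and -2.33 to 1.78 for Foxa1. Foxa1 was called among KO tumors without oral KO tumor 1 (5.15, adjusted p = 0.0321), a fit in which the lone oral tumor is assumed to vary like the pancreatic ones.

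Counts over all genes moved more than those of the factors. Oral KO against WT had 1968 genes higher and 646 lower, against 43 and 22 under the replicate block, 19 and 8 with protein-coding genes alone, 3590 and 1492 in the single fit, 997 lower without a filter, 404 lower with 10 counts in every tumor, and 1399 and 1000 lower by DESeq2 and with apeglm. Pancreatic KO against WT had 83 higher and 72 lower, against 389 and 726 by DESeq2, 330 and 559 with apeglm, 189 and 401 under the block, 55 and 37 in the single fit, 35 and 40 with 10 counts in every tumor, 3 and 7 with protein-coding genes alone, and 120 lower without a filter. At an unadjusted p under 0.05, edgeR had 3916 genes there and 7913 in oral tumors. Among WT tumors, 1677 higher and 2155 lower became 1086 and 1345 with 10 counts in every tumor. Among KO tumors, 2644 higher and 3608 lower became 1741 higher with that filter, 1093 and 1776 with protein-coding genes alone, 1682 higher with thinned counts and 1418 lower under the block. The interaction, 1254 higher and 1914 lower, became 635 and 823 under the block, 352 and 439 with protein-coding genes alone, 663 and 1142 with thinned counts, 600 higher with 10 counts in every tumor, 2006 higher by DESeq2 and 1275 lower without a filter. Leaving out a tumor gave 19 to 1877 genes higher and 17 to 739 lower in oral and 25 to 100 higher and 14 to 169 lower in pancreatic KO against WT. Among WT tumors it gave 1283 to 2023 higher and 1492 to 2079 lower, and among KO tumors 1642 to 2043 and 1525 to 3033. Depth limits Foxa3, Gata4 and Ptf1a most, with 0 to 107 counts per tumor.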
